A study of Mus musculus with 58 samples.

Results

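The diaphragm, the main muscle of breathing, was compared between mice that carried a human pancreatic tumour and mice that had the operation without a tumour. The comparison took every array labelled diaphragm, 29 of the 58 arrays of the series, of which 17 came from tumour-bearing mice and 12 from sham mice. All were adult female NSG mice, an immunodeficient strain that lacks mature T cells, B cells and natural killer cells and keeps macrophages and neutrophils. Tumour-bearing mice had a portion of a pancreatic ductal adenocarcinoma taken from a patient attached to the pancreas (patient-derived xenograft, PDX). They were killed with severe cachexia or a large tumour. Sham mice went through surgery with nothing implanted. The tumours came from 4 patients and the mice formed 4 cohorts, each with 3 sham diaphragm arrays and with 3, 5, 5 and 4 PDX diaphragm arrays in cohorts 1, 2, 3 and 4. The other 29 arrays held the tibialis anterior, a shin muscle, of the same groups. The labels do not say that every array came from a separate mouse, so p-values here measure only how these arrays vary.

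Cachexia is the wasting of muscle and fat that accompanies many cancers and is frequent in pancreatic cancer. In wasting limb muscle, FoxO transcription factors are known to raise the ubiquitin ligases atrogin-1 (Fbxo32) and MuRF1 (Trim63), glucocorticoids add to this, and cytokines of the interleukin 6 family signal through STAT3 and induce acute-phase proteins. The diaphragm contracts with every breath, is rich in mitochondria, is covered by mesothelium on both faces and lies against the liver.

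The arrays carried the genes of striated muscle. All 14 measured genes of a muscle identity list lay above the median of all probe sets (3.777 on the log2 scale) by their median over the diaphragm arrays. Hoxc10, a gene of hindlimb identity, had a median of 2.87 in the diaphragm and 7.15 in the tibialis anterior, and Myh7, the slow myosin heavy chain, had 9.17 and 3.18. Hindlimb identity genes had 1 of 12 above that median in the diaphragm and 4 in the tibialis anterior. Liver transcripts were high on many diaphragm arrays of both groups. Alb, which encodes albumin and is made by hepatocytes, had a lowest, median and highest log2 level of 5.45, 9.23 and 12.4 on the sham arrays and of 5.27, 9.99 and 12.38 on the PDX arrays, against 3.69, 5.43 and 9.44 in the tibialis anterior. Averaged over the cohorts, PDX minus sham for Alb was -0.038, but single cohorts were not balanced: in cohort 1 the mean was 11.56 in PDX and 9.998 in sham arrays, and in cohort 3 it was 8.20 and 10.7. All 23 of 23 measured hepatocyte genes rose with Alb across arrays, and none of them passed limma's test for PDX against sham, nor had an unadjusted p under 0.05. The Alb level of each diaphragm array therefore entered the main comparisons as a covariate, and tibialis anterior arrays were not adjusted for it. With it, 1095 genes rose with Alb (4.72% of the 23184 tested) and 717 fell (3.09%). The steepest named slopes belonged to the liver genes Fgg at 1.32, Serpina1c at 1.32, Hamp at 1.32, Fgb at 1.25 and Cyp3a41b at 1.21 log2 units per log2 unit of Alb, and none of these 5 passed for PDX against sham.

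In tumour-bearing mice the diaphragm had more RNA of acute-phase and complement genes, of macrophage genes and of matrix proteases, and less RNA of genes for mitochondrial respiration, fuel use and heat shock proteins. A gene passed where limma's adjusted p for PDX minus sham, taken within each cohort and averaged with equal weight over the 4 cohorts, was under 0.05 over all 23184 genes. By this test 1534 genes were higher in PDX (6.62%) and 1744 were lower (7.52%), the shares against which the counts of each gene list stand. At least 2-fold differences numbered 85 upward and 30 downward, and the median difference of all genes was -0.0045 on the log2 scale. Of the genes that passed, 1233 of those higher and 1583 of those lower had the same sign in all 4 cohorts. Leaving Alb out of the fit gave 2892 genes, of which 2886 also passed with it. A further fit, also with no Alb covariate, kept only arrays with a log2 Alb of at most 10.44, with 1 sham array left in cohort 3. When the 13 arrays with the most liver RNA were left out, which removed all PDX arrays of cohort 1 and so took the effect from 10 PDX and 5 sham arrays of cohorts 2, 3 and 4, 413 genes were higher and 423 lower. Of those 836 genes, 732 had passed on all arrays with the same sign, but those arrays are part of the 29, so the overlap is no independent support.

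Acute-phase genes, whose products increase during inflammation, were among the largest rises. Of 19 measured acute-phase genes 7 rose and none fell, with a median log2 difference of 0.88, and cohort medians of 0.29, 0.82, 0.77 and 1.54. Serpina3n, a serine protease inhibitor, had a lowest, median and highest log2 level of 5.57, 6.83 and 9.38 on the 12 sham arrays and of 7.92, 9.86 and 10.96 on the 17 PDX arrays. The ranges overlapped, and 12 PDX arrays lay above every sham array. Its log2 difference was 2.70 ± 0.34 (SE), a fold of 6.49 (adjusted p = 1.41e-05, limma). Saa3, the serum amyloid A made outside the liver, ran at 4.43, 5.15 and 7.0 in sham and 4.73, 7.49 and 10.04 in PDX arrays, 12 of which lay above all sham arrays. The difference for Saa3 was 2.39 ± 0.39 (adjusted p = 0.000169, limma). Lcn2, which encodes the iron-siderophore carrier lipocalin 2, had levels of 5.68, 6.396 and 8.58 in sham and 6.91, 8.67 and 11.00 in PDX. In each cohort every PDX array exceeded every sham array for Lcn2, with cohort differences of 1.357, 2.04, 2.73 and 2.73, and the mean difference was 2.21 ± 0.30 (adjusted p = 2.27e-05, limma). Lbp, the lipopolysaccharide-binding protein, rose by 1.70, the metallothioneins Mt2 and Mt1, which bind metals, by 1.91 and 1.13, and the metalloreductase Steap4 by 0.68.

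The promoters of the 3 acute-phase genes with the largest rise, and of Tecrl, the muscle gene with the largest fall, are shown because letters recognised by inflammatory transcription factors could be looked for in them. Each is the 250 bases before the start of the gene in RefSeq (GRCm38.p6), 5′ to 3′ on the gene's strand, and capitals mark matches to the patterns searched on both strands.
Serpina3n, chr12:104406458-104406707, plus strand: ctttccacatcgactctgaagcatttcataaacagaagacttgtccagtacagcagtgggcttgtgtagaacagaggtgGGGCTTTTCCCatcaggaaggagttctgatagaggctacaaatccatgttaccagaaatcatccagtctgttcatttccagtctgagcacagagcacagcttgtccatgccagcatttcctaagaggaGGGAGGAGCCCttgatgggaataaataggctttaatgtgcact
Saa3, chr7:46715677-46715926, minus strand: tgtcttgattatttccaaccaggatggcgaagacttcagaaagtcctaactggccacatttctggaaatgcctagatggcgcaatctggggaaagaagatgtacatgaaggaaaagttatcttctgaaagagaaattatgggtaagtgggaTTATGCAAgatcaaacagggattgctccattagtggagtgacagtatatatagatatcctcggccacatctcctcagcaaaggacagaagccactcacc
Lcn2, chr2:32387740-32387989, minus strand: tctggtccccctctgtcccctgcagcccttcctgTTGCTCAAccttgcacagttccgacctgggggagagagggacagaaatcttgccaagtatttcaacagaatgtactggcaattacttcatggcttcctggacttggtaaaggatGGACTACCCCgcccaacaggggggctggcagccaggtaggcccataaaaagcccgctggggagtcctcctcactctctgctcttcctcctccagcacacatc
Tecrl, chr5:83355196-83355445, minus strand: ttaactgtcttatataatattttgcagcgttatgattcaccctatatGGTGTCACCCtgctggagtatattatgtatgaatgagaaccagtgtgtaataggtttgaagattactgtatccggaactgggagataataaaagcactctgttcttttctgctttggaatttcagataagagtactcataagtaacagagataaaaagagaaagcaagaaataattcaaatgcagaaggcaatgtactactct
The patterns were TTCNNNGAA for STAT factors, TTGCNNAA for C/EBP factors, 3 G, any 5 bases and 2 C for NF-kB, and CTA, any 4 bases and TAG for MEF2. Saa3 held a C/EBP match that began 99 bases before its start and Lcn2 one that began 216 bases before, with an NF-kB match at 102 bases. Serpina3n held 4 NF-kB matches that overlapped in pairs at 2 places, and Tecrl held 1 NF-kB match. None of the 4 windows held a STAT or MEF2 match. Over all 32851 promoters of this length, 7.02% held the STAT pattern, 9.56% the C/EBP pattern, 45.8% the NF-kB pattern and 3.2% the MEF2 pattern. Of the 15 measured acute-phase genes in the promoter table, 10 held a C/EBP match and 3 a STAT match, and of the 6 among them that rose 4 held a C/EBP match and 1 a STAT match. These counts take a gene as holding a match where any of its promoters did. The shares are per single promoter, so counts and shares are not on the same base. A match is a stretch of letters and does not show that a factor was bound.

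The acute-phase genes that passed were not those that followed Alb. Of the 11 that rose with Alb none passed for PDX against sham, and of the other 8 genes 7 passed, all but Saa2. Saa1 had a slope of 0.44 and a difference of 1.45 ± 0.59 (adjusted p = 0.111, limma), and the haptoglobin gene Hp had a slope of 0.55 and a difference of 0.88 ± 0.37 (adjusted p = 0.128, limma). Alb itself came close to the highest values of the arrays (11.73 to 12.6), and with the mean of the hepatocyte list in its place as covariate 14 acute-phase genes rose. The 7 added were Saa1 at 1.502, Orm2 at 1.32, Hp at 0.94, Fgl1 at 0.70, Itih4 at 0.67, Hpx at 0.59 and Cp at 0.53. Without the arrays richest in liver RNA 5 rose. The part of liver RNA in the 11 genes that followed Alb was not tested.

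**Figure D1:**
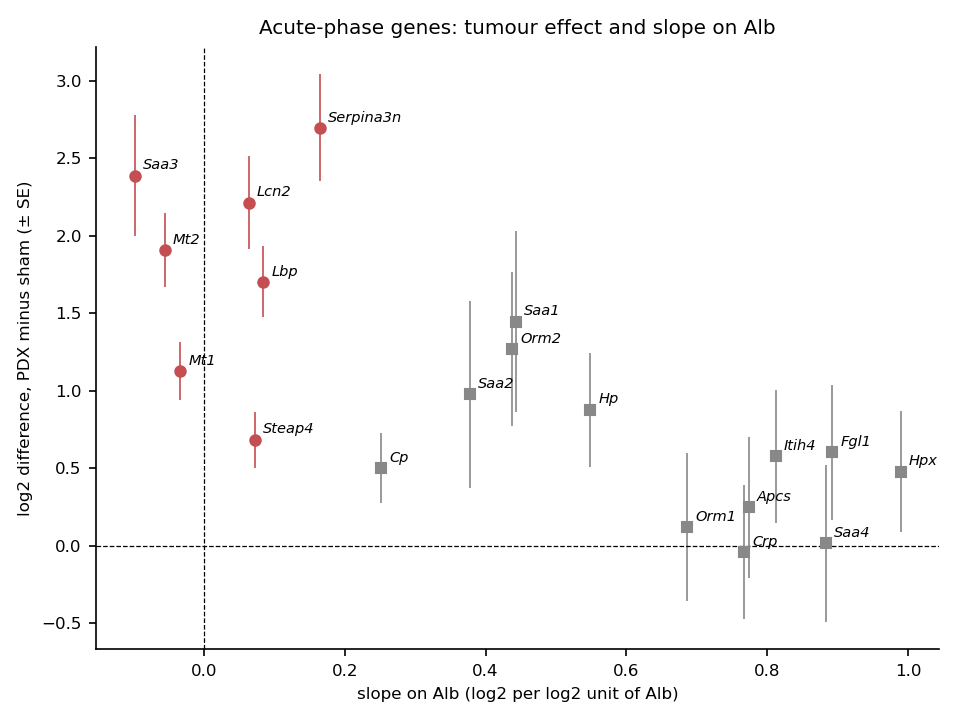
Log2 difference (PDX minus sham, bars ± SE) of the 19 acute-phase genes against their slope on the array's Alb level. Red circles passed the test and grey squares did not; the 7 genes that passed have slopes below 0.2, while the other 12 have slopes of 0.25 or more.

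Genes of the interleukin 6 pathway rose with them. Of 20 measured members 8 rose and none fell, with a median of 0.28. The receptor subunits Osmr, Il6ra and Il6st rose by 1.198, 0.56 and 0.28, the transcription factor Stat3 by 0.67, and the feedback inhibitor Socs3 by 1.33. Osmr, the receptor for oncostatin M, lay at 6.50, 6.82 and 7.08 on sham and 7.25, 8.01 and 8.88 on PDX arrays, and Socs3 at 4.43, 4.79 and 5.14 on sham and 5.25, 6.08 and 7.57 on PDX arrays. For both genes all 17 PDX arrays lay above all 12 sham arrays, which 16 genes did in all (0.069% of those tested). Differences were 1.198 ± 0.11 for Osmr (adjusted p = 4.01e-07, limma) and 1.33 ± 0.15 for Socs3 (adjusted p = 4.6e-06, limma). Myc rose by 0.98, Bcl3 by 0.89 and Cebpd, a C/EBP transcription factor, by 0.70. Cebpd had cohort differences of 1.25, 0.81, 0.79 and -0.044, and the F test of cohort differences did not pass for it (adjusted p = 0.391, limma). Its call was lost without the arrays richest in liver RNA (adjusted p = 0.173, limma). With the arrays richest in liver RNA left out, 6 members rose.

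Macrophage genes rose more often than those of any other list. Of 31 measured members 25 rose and none fell, with a median of 0.77. The mean log2 level of the list ran from 4.59 to 5.34 on the sham arrays and from 5.08 to 6.49 on the PDX arrays. Ms4a7, a membrane protein of tissue macrophages, had levels of 2.50, 2.83 and 3.32 in sham and 3.49, 4.33 and 5.62 in PDX, with no overlap between the groups. Its difference was 1.60 ± 0.17 (adjusted p = 1.56e-06, limma), and as its sham levels were below the median over all probe sets, like those of Ccl8 and Timp1, its difference may be understated. Cd68, a lysosomal glycoprotein of macrophages, had levels of 6.05, 6.57 and 7.39 in sham and 6.78, 7.96 and 8.84 in PDX arrays, 14 of which lay above all sham arrays, and rose by 1.32 ± 0.16 (adjusted p = 6.01e-06, limma). The mannose receptor Mrc1 rose by 1.18, the haemoglobin scavenger receptor Cd163 by 1.09, the chemokine receptor Ccr2 by 1.01 and the growth factor receptor Csf1r by 0.72. Cohort medians of the list were 0.99, 1.06, 0.45 and 0.44. In bulk RNA more cells of a type and more RNA per cell cannot be told apart. On the arrays poorer in liver RNA 11 members rose and none fell.

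Complement genes rose in 11 of 15 cases and fell in none, with a median of 0.81; without the arrays richest in liver RNA 9 rose. The terminal component C7 lay at 5.27, 5.80 and 6.99 in sham and 6.08, 7.15 and 8.67 in PDX arrays, apart within each of the 4 cohorts, and rose by 1.48 ± 0.22 (adjusted p = 5.59e-05, limma). C1qa, C1qb and C1qc, the recognition subunits that macrophages make and that the macrophage list also holds, rose by 0.77, 0.92 and 0.97. The classical-pathway genes C4b and C1s1 rose by 0.93 and 0.88 and the alternative-pathway factor Cfb by 1.01, although Cfb also rose with Alb. Among 23 chemokines and receptors 12 rose and 2 fell, and without the arrays richest in liver RNA 3 rose. Ccl8, which attracts monocytes, stood out with levels of 2.92, 3.16 and 3.62 in sham and 4.03, 4.81 and 7.07 in PDX and no overlap. It rose by 1.93 ± 0.25, a fold of 3.8 (adjusted p = 1.42e-05, limma). Cxcl14 rose by 1.51, Ccl6 by 1.12 and Cxcl13 by 1.02, while Cxcl9 fell by 0.49 and Ccl11 by 0.31. Ccl11 was close to the threshold (adjusted p = 0.0479, and 0.062 with no Alb covariate, limma), and leaving out 1 array reduced the number of chemokine genes that fell to 1 in 22 of 29 cases.

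Genes that present antigen on class II molecules rose too. Of 19 measured genes for the immunoproteasome and antigen presentation 8 rose, with the largest rises in the class II genes H2-Aa (1.37 ± 0.14), Cd74 (1.27 ± 0.13) and H2-Ab1 (1.07 ± 0.12). Cohort differences for H2-Aa were 1.57, 2.22, 1.19 and 0.52, and without the arrays richest in liver RNA 4 genes of the list rose. Interferon response genes rose in 2 of 24 cases, Oasl2 at 0.49 and Ifitm3 at 0.44, close to the share of all genes, and Ifitm3 did not pass without sham array 3 of cohort 3 (adjusted p = 0.0574, limma). Neutrophil genes were mixed, with 2 of 20 higher (Lrg1 0.93, Il1b 0.70) and Padi4 lower at -0.73. Their mean level ran from 2.85 to 3.19 on the sham arrays and from 2.92 to 3.65 on the PDX arrays, below the median of all probe sets. Lymphocyte genes, which NSG mice should largely lack, had 1 of 18 higher and 1 lower. Cd4, which monocytes can also carry, was at 0.34 and did not pass when any of 11 arrays was left out. The gene that fell was Ighm, the immunoglobulin heavy chain of IgM, at -1.07 ± 0.22 (adjusted p = 0.00128, limma). Its cohort differences were -0.56, -0.70, -1.06 and -1.985, and it did not pass without cohort 4 or without the arrays richest in liver RNA. In the tibialis anterior Ighm fell by 3.08 ± 0.26, a difference between muscles of 2.01 ± 0.37 (adjusted p = 0.000189, limma). Of 12 mast cell genes 3 fell, the proteases Mcpt4 at -1.16, Cpa3 at -1.03 and Cma1 at -0.41, and 1, the histamine-producing enzyme gene Hdc, rose by 0.49, with a list median of -0.046. Cpa3 and Hdc did not pass without the arrays richest in liver RNA (adjusted p = 0.15 and 0.235, limma).

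Other genes among the 10 largest rises were Clca3a1 and Csf2rb, which rose in every cohort. Clca3a1, a chloride channel regulator, lay at 3.16, 3.99 and 4.15 in sham and 5.29, 5.89 and 7.16 in PDX arrays, with more than 1 log2 unit between the groups. It rose by 2.28 ± 0.16, a fold of 4.86 (adjusted p = 3.42e-09, limma). Csf2rb, the shared receptor subunit for GM-CSF and interleukins 3 and 5, ran at 3.66, 4.26 and 5.05 in sham and 5.50, 6.04 and 7.32 in PDX arrays without overlap and rose by 1.70 ± 0.16 (adjusted p = 3.36e-07, limma). Apod, the lipid-binding apolipoprotein D, rose by 1.65 ± 0.17 and was apart within each cohort. Chl1, a neural adhesion molecule, rose by 2.12 ± 0.42, with levels on PDX arrays spread from 3.18 to 8.57. Without the arrays richest in liver RNA its adjusted p was 0.0918 (limma). All PDX arrays lay above all sham arrays within each of the 4 cohorts for 58 genes (0.25%) and below them for 39 (0.168%).

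**Figure D2:**
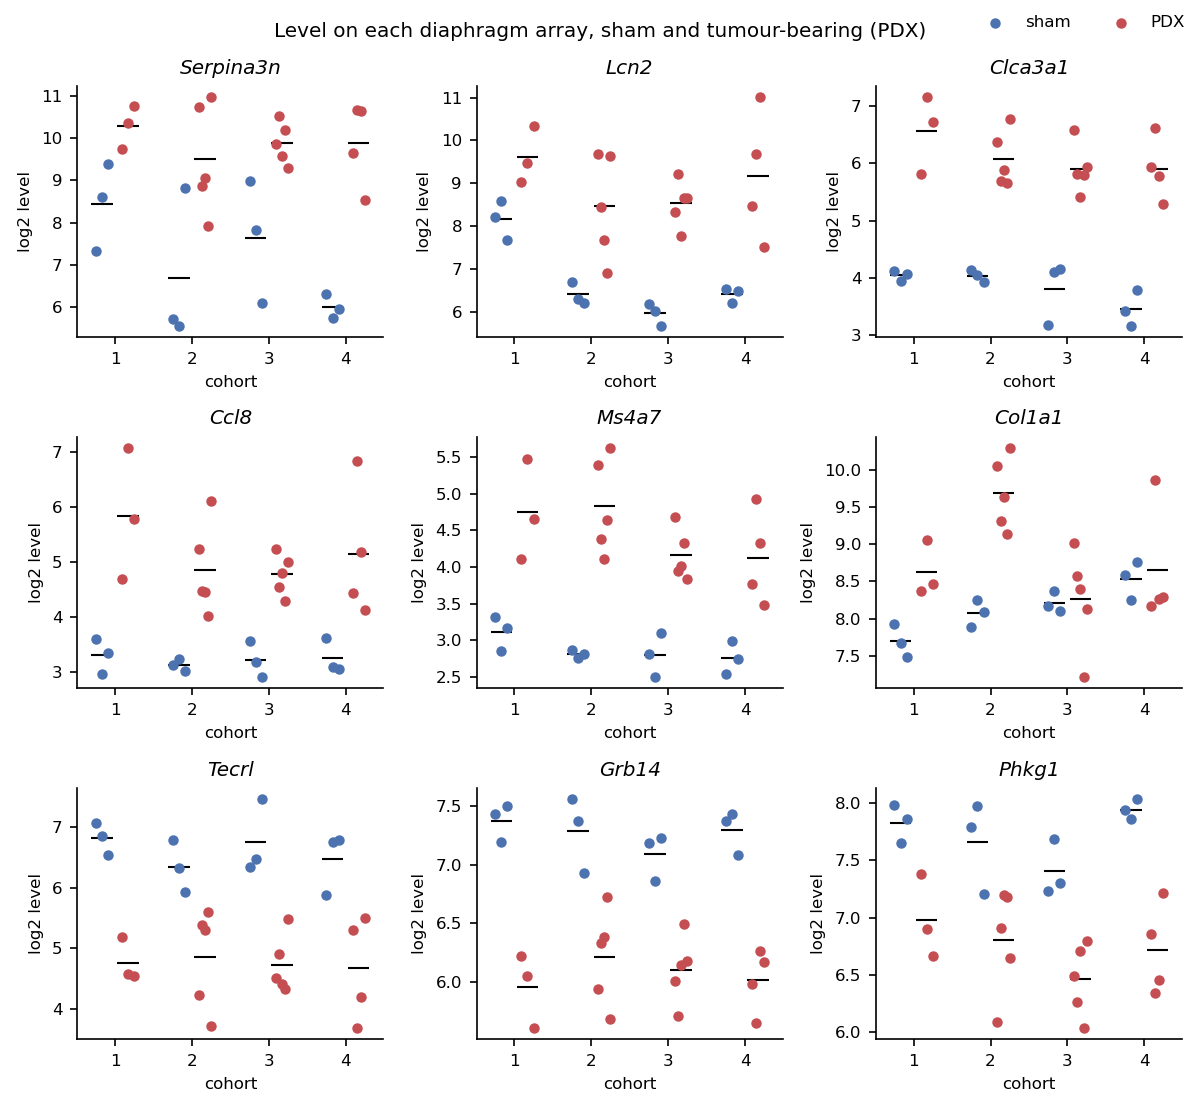
Log2 level on each diaphragm array for 9 genes, by cohort, with sham arrays in blue, PDX arrays in red and a black bar at each group mean. Clca3a1, Ccl8, Ms4a7, Tecrl and Grb14 show no overlap between the groups, whereas Col1a1 is higher in PDX in cohorts 1 and 2 and overlaps in cohorts 3 and 4.

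Matrix genes rose on average, with cohort medians that were high in cohorts 1 and 2 and near 0 in cohorts 3 and 4. Of 40 genes for fibrillar collagens and other matrix proteins 18 rose and 2 fell, with a median of 0.33 and cohort medians of 0.52, 0.95, -0.012 and -0.088. Col1a1, the main chain of type I collagen, lay at 7.49, 8.14 and 8.76 in sham and 7.22, 8.57 and 10.28 in PDX arrays, with 8 PDX arrays above and 1 below all sham arrays. Its difference was 0.67 ± 0.17 (adjusted p = 0.00742, limma), and the cohort differences were 1.03, 1.62, -0.11 and 0.15. Col3a1 had cohort differences of 1.04, 1.66, -0.23 and 0.15 and a mean of 0.66 ± 0.17. Postn (periostin) rose by 0.94, the collagen cross-linking enzyme Lox by 1.05 and Thbs2 (thrombospondin 2) by 0.87, while Col15a1 fell by 0.52 and the prolyl hydroxylase P4ha1 by 0.45. The number of matrix genes that rose depended on cohorts 1 and 2: 7 rose without cohort 1, 5 without cohort 2 and 25 without cohort 4. With the arrays richest in liver RNA left out, which leaves out the PDX arrays of cohort 1, 3 rose, and the adjusted p of Col1a1 was 0.114 (limma). An F test of unequal cohort effects did not pass for Col1a1 (adjusted p = 0.317, limma).

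Matrix proteases and their inhibitors rose in 14 of 22 cases and fell in 1. Timp1, an inhibitor of matrix metalloproteinases, had levels of 2.16, 2.83 and 3.19 in sham and 2.92, 3.92 and 7.67 in PDX arrays, 14 of which lay above all sham arrays, and rose by 1.47 ± 0.32 (adjusted p = 0.00249, limma). The metalloproteinases Mmp3, Mmp14 and Mmp2 rose by 1.12, 0.81 and 0.63. The number that rose was 6 without cohort 1 and 2 without the arrays richest in liver RNA. Basement membrane genes rose in 1 of 18 cases and fell in none; the gene was Lama5 (0.27), which did not pass when any of 16 arrays was left out. Fibroblast and progenitor genes rose in 5 of 21 cases and fell in 1, with Apod, Pi16 (0.66) and S100a4 (0.56) the largest, with cohort medians of 0.35, 0.59, 0.078 and -0.16. S100a4 had cohort differences of 0.83, 1.15, 0.30 and -0.061. Without the arrays richest in liver RNA 2 fibroblast genes rose, and without cohort 2 3. The mean level of the list ran from 6.23 to 6.93 on the sham arrays and from 6.28 to 7.33 on the PDX arrays. Endothelial genes rose in 8 of 21 cases, led by Plvap (1.09), which forms the diaphragms of vessel pores, and the leukocyte adhesion molecules Vcam1 (1.05) and Icam1 (0.59), and fell in 1, the VEGF receptor gene Kdr (-0.23). Mesothelial genes rose in 6 of 14 cases, with Slpi at 1.15, Msln (mesothelin) at 0.90 and Upk1b at 0.78, and their mean level ran from 5.21 to 5.97 on the sham arrays and from 5.48 to 6.67 on the PDX arrays. Of 14 pericyte and smooth muscle genes 2 rose (Tagln 0.48, Des 0.26) and 2 fell (Lmod1 -0.47, Rgs5 -0.40). Des, also on the muscle identity list, had levels from 10.42 to 11.35 over the diaphragm arrays. Its call was lost when cohort 1, 2 or 3 was left out and without the arrays richest in liver RNA. Pancreatic acinar genes passed limma's test in 0 of 13 cases (1 at an unadjusted p under 0.05), with mean levels from 2.56 to 2.94 on the sham arrays and from 2.52 to 3.06 on the PDX arrays, and adipocyte genes in 1 of 18, the fall of leptin (Lep -0.74). Lep had cohort differences of -0.34, -1.28, -0.065 and -1.28 and did not pass without cohort 2. Its mean level on PDX arrays was 3.08, below the median of all probe sets. The erythroid list passed in 1 of 6 cases, Slc4a1, which did not pass when any of 10 arrays was left out. On the arrays poorer in liver RNA 3 endothelial and 5 mesothelial genes rose. The endothelial count was 5 when any of 5 single arrays was left out, namely sham array 1 of cohort 1, 2 or 3, sham array 3 of cohort 3 or PDX array 2 of cohort 1. The part of these cell types in the results was not tested.

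Genes of energy metabolism fell together, by small amounts. Of 34 measured genes for respiratory complex I, which passes electrons from NADH into the respiratory chain, 27 fell and none rose, and all 34 had a negative difference. The median was -0.32, between -0.57 and -0.13 over the members, and the cohort medians were -0.24, -0.29, -0.31 and -0.36. The mean log2 level of the list ran from 8.13 to 8.66 on the sham arrays and from 7.66 to 8.29 on the PDX arrays. Ndufc1 lay at 9.32, 9.55 and 9.87 in sham and 8.62, 9.05 and 9.43 in PDX arrays, with 14 PDX arrays below every sham array, and fell by 0.49 ± 0.071 (adjusted p = 4.52e-05, limma). Ndufab1 fell by 0.54 and Ndufs3 by 0.44. For complexes II to V, 19 of 31 genes fell and none rose, with a median of -0.28. Examples are Cyc1 of complex III at -0.49, Cox7a1 of complex IV at -0.48 and Atp5e of the ATP synthase at -0.42.

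Fuel use followed the same direction. Genes for pyruvate dehydrogenase and the TCA cycle fell in 14 of 24 cases and rose in none, with a median of -0.27; the pyruvate dehydrogenase subunits Pdhx and Dlat were at -0.53 and -0.45. Fatty acid genes fell in 14 of 26 cases and rose in none, with Plin5, a lipid droplet protein, at -0.55, Acads at -0.41 and the transcription factor Ppara at -0.45. Ppara also rose with Alb, with a slope of 0.11, and did not pass with no Alb covariate (adjusted p = 0.0695, limma). Its call was also lost when cohort 1, 2 or 3 was left out. Cohort medians of the fatty acid list were -0.45, -0.33, -0.019 and -0.20. Glycolysis and glycogen genes fell in 13 of 24 cases, and 1 rose, Fbp2 (0.42), whose cohort differences were 0.048, -0.048, 1.42 and 0.25. Phkg1, the catalytic subunit of muscle phosphorylase kinase, had levels of 7.21, 7.82 and 8.03 in sham and 6.04, 6.71 and 7.38 in PDX arrays, apart within each cohort, and fell by 0.97 ± 0.12 (adjusted p = 6.38e-06, limma). Genes for mitochondrial biogenesis and dynamics fell in 13 of 23 cases and rose in none. Nmrk2, which makes NAD from nicotinamide riboside in muscle, lay at 6.63, 7.38 and 7.73 in sham and 4.16, 5.87 and 7.67 in PDX arrays, 14 of which lay below all sham arrays, and fell by 1.52 ± 0.21 (adjusted p = 2.41e-05, limma). Its fall was largest in cohorts 1 and 4, with cohort differences of -2.65, -0.82, -0.65 and -1.96, and its adjusted p was 0.063 (limma) without the arrays richest in liver RNA. Perm1, a regulator of oxidative genes in muscle, fell by 0.84 and the orphan receptor Esrrb by 0.63, whereas Ppargc1a, the coactivator that drives mitochondrial biogenesis, was at -0.18 ± 0.20 and did not pass.

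Without the arrays richest in liver RNA the counts of falling genes were 10 for complex I, 8 for complexes II to V, 1 for pyruvate dehydrogenase and the TCA cycle, 0 for fatty acids, 3 for glycolysis and 2 for mitochondrial biogenesis. That fit had no Alb covariate, and fewer genes passed there over the whole array as well, as given above.

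Heat shock genes fell as well. Genes that encode heat shock proteins and their helpers fell in 10 of 20 cases and rose in none, with a median of -0.21. Hsph1, a co-chaperone of Hsp70, had levels of 6.35, 7.22 and 7.76 in sham and 4.82, 5.84 and 7.17 in PDX arrays, 13 of which lay below all sham arrays, and fell by 1.13 ± 0.17 (adjusted p = 5.56e-05, limma). The mitochondrial chaperones Hspd1 and Hspe1 fell by 0.47 and 0.38. The count of heat shock genes that fell was 6 without sham array 2 of cohort 1 and 6 without sham array 2 of cohort 3, and without the arrays richest in liver RNA it was 2. Endoplasmic reticulum stress genes rose in 1 of 27 cases, Eif2ak3 at 0.23, and ribosomal protein genes in 3 of 21, with Rpl8 at 0.21 and Rpl4 at 0.20.

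**Figure D3:**
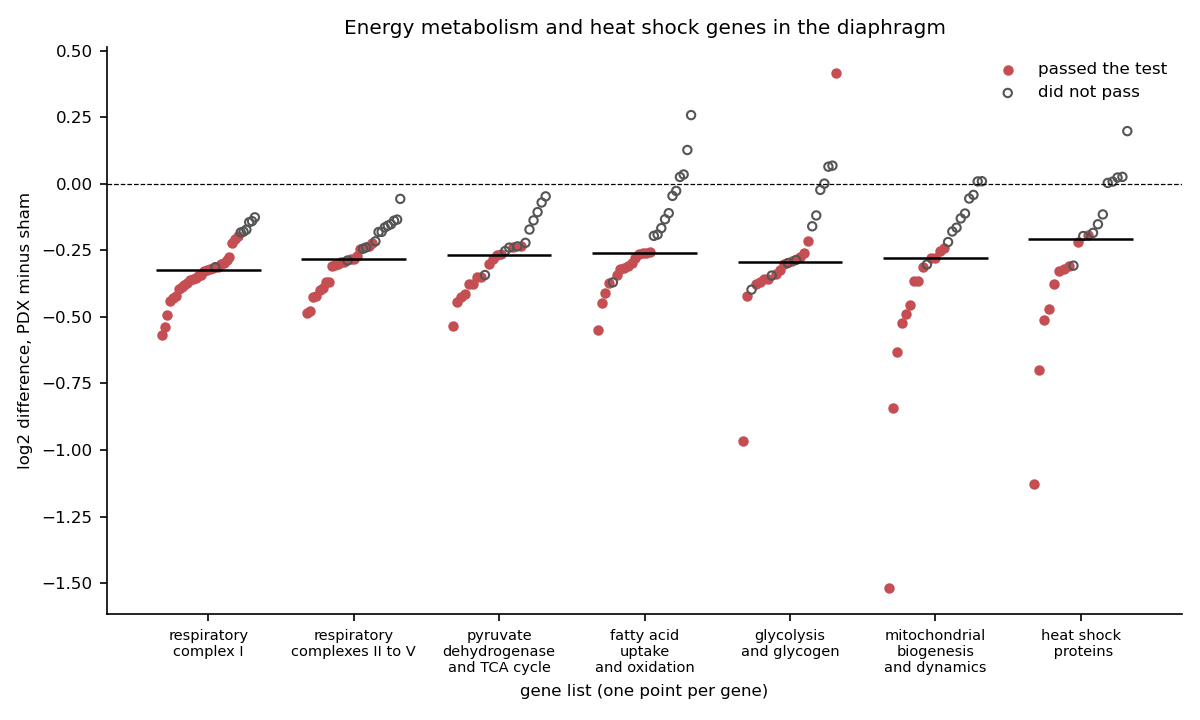
Log2 difference (PDX minus sham) of each member of 6 energy metabolism lists and of the heat shock list, sorted within a list, with the list median as a black line. Filled red points passed the test; for complex I, complexes II to V and the TCA cycle every point lies below 0.

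Tecrl led the falls of single genes, apart from 2 liver genes. This gene, which encodes an endoplasmic reticulum enzyme of heart and muscle, lay at 5.87, 6.64 and 7.45 on sham and 3.70, 4.57 and 5.61 on PDX arrays, and every PDX array was below every sham array. It fell by 1.84 ± 0.22 (adjusted p = 5.42e-06, limma), with cohort differences of -2.005, -1.49, -2.10 and -1.78. Abhd18 lay at 7.29, 7.60 and 8.48 in sham and 5.30, 6.17 and 7.21 in PDX arrays, also without overlap, and fell by 1.44. Cyfip2, part of the WAVE complex for actin assembly, fell by 1.41, Apol6 by 1.29 and the magnesium transporter gene Slc41a3 by 1.27. Ky, a Z-disc protein needed for muscle growth, fell by 1.365, with an adjusted p of 0.137 (limma) without the arrays richest in liver RNA. Grb14, an adaptor that inhibits the insulin receptor, ran at 6.86, 7.30 and 7.56 in sham and 5.61, 6.14 and 6.72 in PDX arrays with no overlap and fell by 1.19 ± 0.11 (adjusted p = 3.36e-07, limma). All 17 PDX arrays lay below all 12 sham arrays for 9 genes in all (0.0388%). The liver genes Mup3 and Cyp2c40 also fell by over 1.8 in the fit with Alb, but Mup3 did not pass when any of 5 arrays was left out, and both followed Alb with slopes of 0.92 and 0.66 and without the covariate did not pass (adjusted p = 0.247 and 0.157, limma).

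Falls outnumbered rises among genes of fast and slow fibres. Of 21 fast fibre genes 4 fell (19.0%, against 7.52% of all genes) and none rose, among them the water channel Aqp4 at -1.16, the calcium buffer Pvalb (parvalbumin) at -0.90 and the calcium store protein Casq1 at -0.53. None of the 4 passed without the arrays richest in liver RNA, where Aqp4, Pvalb and Casq1 were at -0.80, -0.34 and -0.46 (adjusted p = 0.112, 0.504 and 0.111, limma). Of 19 slow fibre genes 6 fell (31.6%), with the calcium pump Atp2a2 at -0.39 and the myosin light chains Myl2 and Myl3 at -0.33 and -0.37, and 1 rose. The 6 became 3 with no Alb covariate, 3 when sham array 1 of cohort 2, sham array 3 of cohort 4 or PDX array 2 of cohort 1 was left out, and 1 without the arrays richest in liver RNA. The slow fibre gene that rose was Ankrd2, a stretch-responsive protein of the Z-disc, with levels of 6.33, 7.02 and 7.59 in sham and 6.96, 8.40 and 9.52 in PDX arrays, 15 of which lay above all sham arrays, and a difference of 1.41 ± 0.21 (adjusted p = 6.96e-05, limma). The myosin heavy chains Myh1, Myh2 and Myh7 were at -0.064 ± 0.069, -0.09 ± 0.072 and -0.14 ± 0.12 and did not pass. Myh4, the heavy chain of the fastest fibres, spread from 6.95 to 11.03 on sham arrays and from 5.43 to 10.56 on PDX arrays, and its difference of -1.13 ± 0.41 did not pass (adjusted p = 0.0704, limma). It passed when any of 4 arrays was left out, sham arrays 3 and PDX arrays 3 of cohorts 2 and 3, with the lowest adjusted p, 0.0054 (limma), without sham array 3 of cohort 3. The 14 genes of muscle identity split into 1 higher, Des, and 3 lower, Casq1, Tnnt1 (-0.41, lost when any of 9 arrays was left out) and Mb (-0.25), and of the hindlimb identity list Hoxc10, near background in the diaphragm, was lower at -0.63. Of 15 genes of the dystrophin complex and costamere 1 rose (Des 0.26) and 2 fell (Ky and Sspn -0.31). As given above, the call of Des was lost when cohort 1, 2 or 3 was left out. In the ion and water transport list 3 of 19 rose and 7 fell, with the potassium channel Kcnj2 at -0.62. Genes of the neuromuscular junction and denervation rose in 3 of 21 cases, with the transcription factor Runx1 at 0.94 ± 0.12, and fell in 4, with the acetylcholinesterase anchor Colq at -0.56. Satellite cell genes passed in 3 of 23 cases, with Vcam1, which endothelium also makes, higher and with Myod1 lower at -0.39 and the cell cycle inhibitor Cdkn1c at -0.25.

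The ubiquitin ligases that mark wasting in limb muscle did not rise by the test. Fbxo32 had a lowest, median and highest level of 8.39, 9.15 and 9.56 in sham and 7.99, 9.05 and 9.57 in PDX arrays, nearly the same range, and a difference of -0.19 ± 0.11 (adjusted p = 0.3, limma). Trim63 ran at 7.38, 8.02 and 8.64 in sham and 6.92, 8.06 and 9.13 in PDX arrays, again overlapping, with a difference of 0.076 ± 0.15 (adjusted p = 0.833, limma). Of 20 genes of this group 4 rose and 4 fell. Those that rose were Eif4ebp1, a translation inhibitor, at 0.87, the stress gene Gadd45a at 0.53, the lysosomal protease Ctsl at 0.31 and the transcription factor Foxo1 at 0.24. Gadd45a did not pass without cohort 1, 3 or 4, and Foxo1 did not pass without cohort 1 or 3. Those that fell included the ligases Fbxo40 (-0.50) and Fbxo30 (-0.34). Proteasome subunits passed in 2 of 29 cases, Psmd4 at 0.20 and Psmd6 at -0.21, and Psmd4 did not pass when any of 19 arrays was left out. With the arrays richest in liver RNA left out, 2 atrophy genes rose and 1 fell. Autophagy and lysosome genes rose in 6 of 28 cases and fell in 1, and the largest rises, Ctss at 1.05 and Ctsk at 0.67, are cathepsins that macrophages also make. Glucocorticoid-responsive genes rose in 6 of 20 cases and fell in 1, and without the arrays richest in liver RNA 2 rose. Fkbp5, a chaperone of the glucocorticoid receptor, lay at 4.72, 5.40 and 5.90 in sham and 5.44, 6.98 and 8.06 in PDX arrays, apart within each cohort, and rose by 1.52 ± 0.21 (adjusted p = 2.36e-05, limma). Ddit4, an inhibitor of mTORC1, rose by 0.86.

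Genes of insulin signalling moved in both directions. In the insulin and IGF list 5 of 21 rose and 4 fell, with Grb14 and the receptor substrate Irs1 (-0.78) lower and the binding protein Igfbp4 at 0.61. Neither Irs1 nor Igfbp4 passed without the arrays richest in liver RNA. Irs1 also did not pass without cohort 3, and Igfbp4 did not without cohort 2. Igf1 itself was at 0.11 ± 0.20 and did not pass, and its level rose with Alb. The TGF-beta, myostatin and activin pathways had 10 of 30 genes that rose and none that fell, with the latent TGF-beta binding protein Ltbp2 at 0.80, the receptor Tgfbr2 at 0.61 and the activin subunit Inhbb at 0.49. On the arrays poorer in liver RNA 3 of them rose, and 5 rose without cohort 1. Mstn (myostatin), which limits muscle growth, was at -0.44 ± 0.20 (adjusted p = 0.165, limma). Amino acid and polyamine genes, 27 in all, split into 7 that rose and 5 that fell. The transporter subunits Slc3a2 and Slc7a5 rose by 0.50 and 0.45 and the polyamine-degrading enzyme Sat1 by 0.56, while the branched-chain amino acid genes Bcat2, Bckdha and Bckdhb fell by 0.47, 0.46 and 0.35 and spermine synthase (Sms) by 0.59. Sat1 and Sms did not pass without the arrays richest in liver RNA. Cell cycle genes rose in 6 of 28 cases, with the proliferation marker Mki67 at 0.48 and the replication factor Mcm6 at 0.47. Cohort differences were 0.72, 1.07, 0.11 and 0.015 for Mki67 and 0.57, 0.75, 0.37 and 0.17 for Mcm6. The number that rose was 1 without cohort 1, 0 without cohort 2, 2 without PDX array 2 of cohort 1, 3 without PDX array 2 of cohort 4 and 1 without the arrays richest in liver RNA.

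Whether the 4 cohorts differed in their tumour effect was asked with an F test per gene. It passed for 2 genes (0.00863%), Per1 and Cdk14, and 2078 genes had an unadjusted p under 0.05. Per1, a clock gene that glucocorticoids also induce, had cohort differences of 0.49, 0.14, 2.35 and 0.065, so the difference lay in cohort 3 (adjusted p = 0.00152, limma). Cdk14 had 0.65, 1.12, -0.48 and 0.20 (adjusted p = 0.0185, limma). The next smallest p-values belonged to Zfp558, Spats2l and Dse and did not pass. The number that passed was unstable: leaving out single arrays gave between 0 and 46 genes, with 46 when PDX array 2 of cohort 4 was left out and 0 when sham array 3 of cohort 3 was left out. Averaged over the cohorts, 4 of 18 clock genes were higher and 3 lower. Arntl (BMAL1), which drives the clock, was at -0.96 ± 0.23 and its repressor Nr1d1 at -0.96 ± 0.23, while Per2 was at 0.86 ± 0.17. Nr1d1 had cohort differences of -2.10, -0.81, 0.086 and -0.99 and did not pass without cohort 1 (adjusted p = 0.112, limma) or without the arrays richest in liver RNA (adjusted p = 0.273, limma). Arntl had -0.32, -1.05, -1.51 and -0.95 and did not pass without cohort 2 or cohort 3 (adjusted p = 0.0691 and 0.068, limma). The F test passed for neither. The labels used here give no hour of death.

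**Figure D4:**
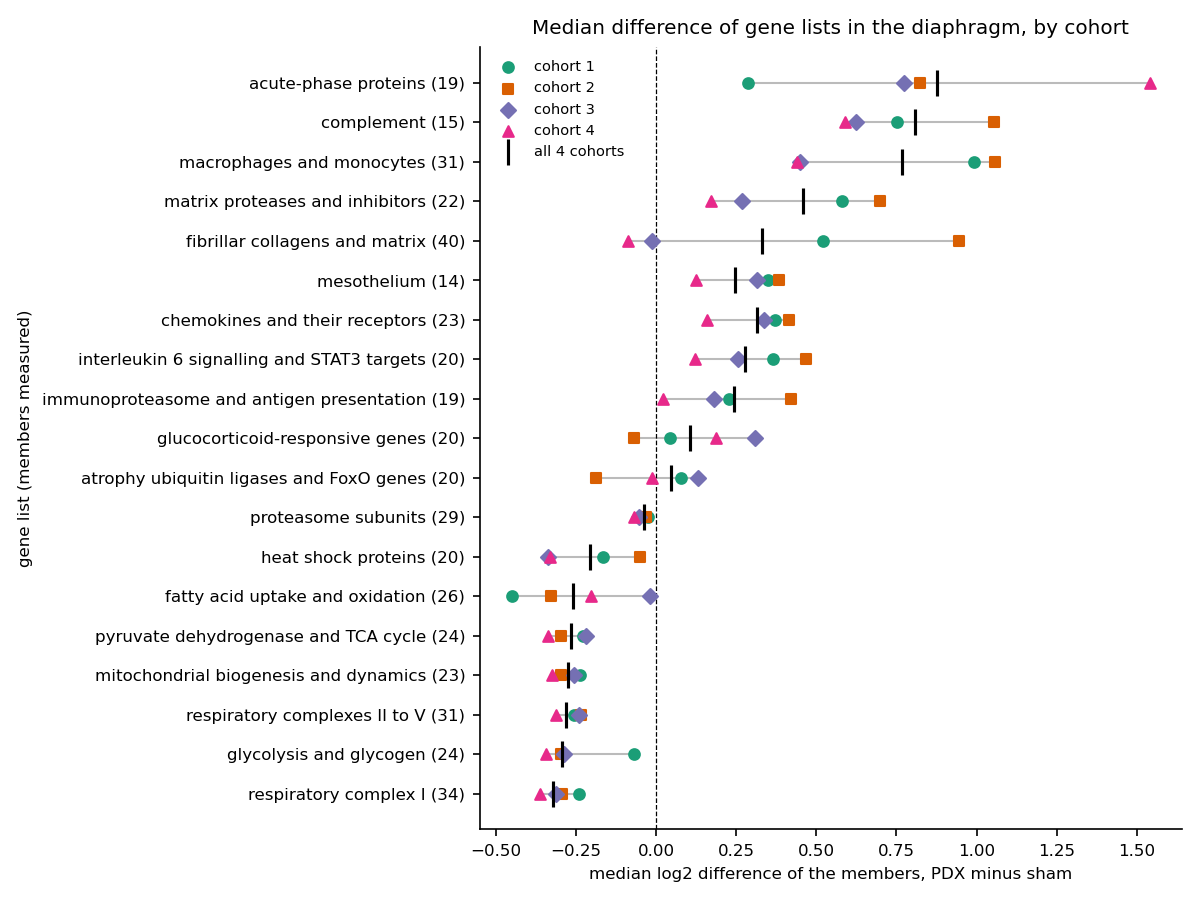
Median log2 difference (PDX minus sham) of the members of 19 gene lists, with one marker per cohort and a black tick for the effect over all 4 cohorts. The medians of complex I lie between -0.36 and -0.24 in every cohort, while those of the matrix list run from -0.09 in cohort 4 to 0.95 in cohort 2.

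The tumour effect in the diaphragm was then compared with that in the tibialis anterior of the same groups. The effect was higher in the diaphragm for 922 genes (3.98%) and lower for 729 (3.14%). Collagen genes differed widely: Col1a1 fell by 2.55 ± 0.17 in the tibialis anterior, which gave a difference between muscles of 3.22 ± 0.24 (adjusted p = 2.04e-13, limma), and Col3a1 gave 2.54 ± 0.22. Over the matrix list the effect was higher in the diaphragm for 32 of 40 genes and lower for none. In the tibialis anterior 29 of these genes fell and none rose. Macrophage genes differed in the same direction, with 22 of 31 higher in the diaphragm, and in the tibialis anterior none rose and 4 fell. Ms4a7 was at -0.04 ± 0.13 in the tibialis anterior, a difference of 1.64 ± 0.19 (adjusted p = 4.77e-08, limma), and Ccl8 at 0.17 ± 0.19, a difference of 1.75 ± 0.28. Complement genes were higher in 9 of 15 cases. Lbp, Chl1, Apod and Clca3a1 also rose more in the diaphragm, by 1.58, 1.95, 1.21 and 1.10. Tecrl, at -0.071 ± 0.17 in the tibialis anterior, was lower in the diaphragm by 1.77 (adjusted p = 8.04e-07, limma), and Abhd18 and Apol6 by 0.96 and 0.93.

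Genes of the atrophy programme differed the other way. Fbxo32 and Trim63 were at 0.75 ± 0.11 and 0.91 ± 0.16 in the tibialis anterior, and the differences between muscles were -0.93 ± 0.16 (adjusted p = 8.26e-05, limma) and -0.84 ± 0.22 (adjusted p = 0.0123, limma). By the test of the difference between muscles, the effect was lower in the diaphragm for 8 of 20 atrophy genes, 8 of 20 glucocorticoid-responsive genes and 9 of 29 proteasome subunits, and higher for none of them. Foxo1 rose in both muscles, although its diaphragm call was lost without cohort 1 or cohort 3. Its effect was lower in the diaphragm by 0.55, and that of Cebpd by 0.94. Myh2 fell in the tibialis anterior (-1.49 ± 0.15), with a difference of 1.40 ± 0.21. For respiration no difference between the muscles passed: 0 of 34 complex I genes and 0 of 31 genes of complexes II to V were higher or lower by limma's test (1 and 2 at an unadjusted p under 0.05), and in the tibialis anterior 18 genes of each list fell and none rose. For Ndufc1 the difference was -0.011 ± 0.11, and its tumour effect in the tibialis anterior was -0.48 ± 0.081. Lcn2, Fkbp5 and Mt2 rose in both muscles, with differences of -0.65 ± 0.59, -0.34 ± 0.32 and -0.59 ± 0.42 that did not pass. Cyfip2, Nmrk2 and Grb14 fell in both, at -1.59, -1.49 and -0.86 in the tibialis anterior.

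**Figure D5:**
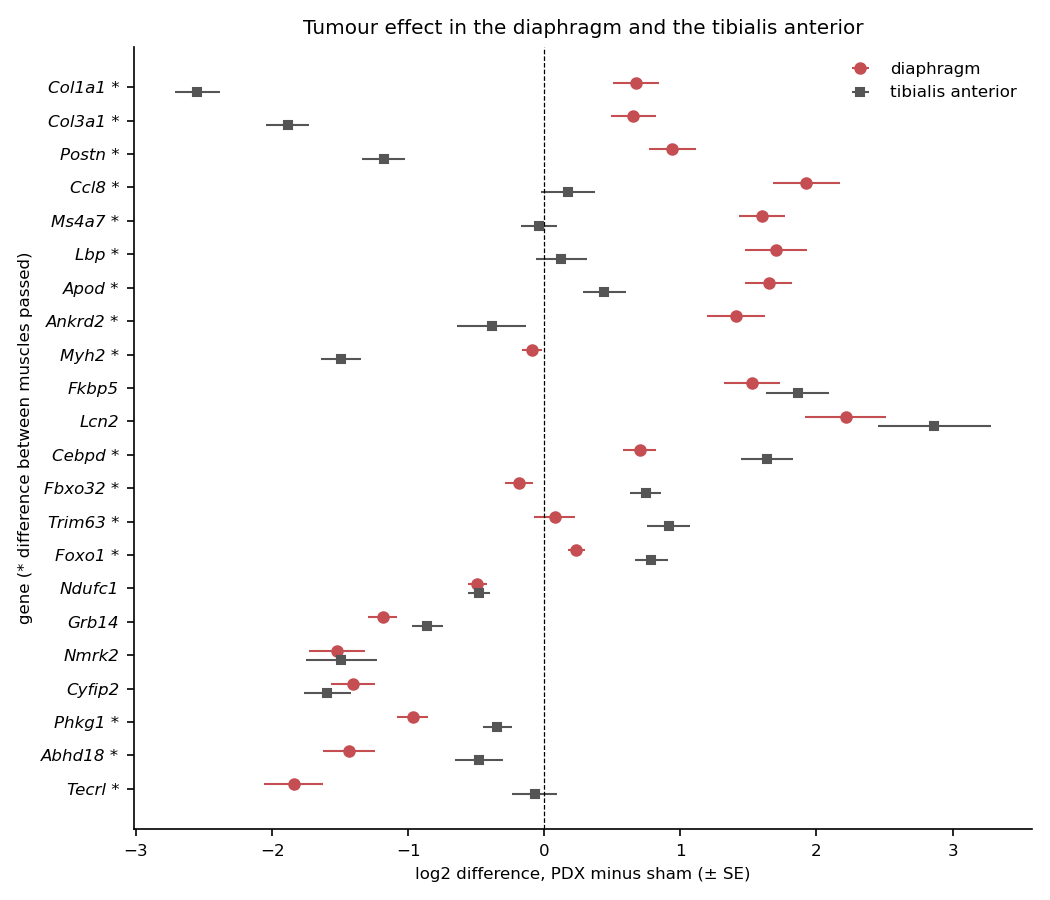
Log2 difference (PDX minus sham, bars ± SE) of 22 genes in the diaphragm (red circles) and the tibialis anterior (grey squares); a star marks a difference between the muscles with an adjusted p under 0.05. Col1a1 lies at 0.67 in the diaphragm and at -2.55 in the tibialis anterior, and Ndufc1 lies at -0.49 and -0.48.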

How the data were processed

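Total RNA was extracted with TRIzol, labelled with biotin and put on Affymetrix arrays, per the labels' protocols. The authors deposited log2 levels for 25206 probe sets, computed by RMA; the submitters' processing notes name affy 1.36.1 and R 2.15.1. How probe sets were defined is not given in the sources used here. A platform table named 23185 probe sets, 1 gene each, and 2021 had no single gene name. Each gene except Alb was fitted with limma 3.58.1 (R 4.3.3) with a mean for each of the 8 cohort and treatment groups and the array's log2 Alb. Tests were two-sided with Benjamini-Hochberg adjustment over 23184 genes. The muscle comparison used all 58 arrays, with Alb for the diaphragm only. The scripts were tested on simulated data.

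Replicate numbers were not taken as pairs in the main fits. Deviations of equally numbered sham and PDX arrays correlated between -0.585 and 0.647, above 0.1 in 5 of 12 pairs. Those of equally numbered diaphragm and tibialis anterior arrays correlated between -0.222 and 0.22, above 0.1 in 4 of 29. Such correlations cannot settle the pairing, because liver RNA also varied between diaphragm arrays. The labels do not say whether equally numbered diaphragm and tibialis anterior arrays came from one mouse, and the muscle comparison treated them as unpaired. Named were the 10 highest and 10 lowest genes that passed with one sign in all cohorts, up to 3 genes for each of 47 lists, 14 fixed genes, and 5 each for the cohort test and the Alb slope, without predicted and olfactory genes; other list members are examples chosen after their values were seen. Members and lists were chosen with earlier results of these data known. The number of arrays limits the precision.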

Additional observations from a re-analysis of the deposited data

Results flagged for a closer look

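Levels of the named genes were examined in each group of 4 or 5 PDX diaphragm arrays for an array far from the rest of its group (Dixon's criterion). Of 453 combinations of gene and group 31 held one, and chance marks about 1 in 20. PDX array 4 of cohort 3 was the outlying array in 12 cases. It was high for the liver genes Mup3 (7.401), Cyp2c40 (7.49) and Cyp3a41b (10.6) and for Lrg1 (7.81) and Cfb (9.19). On the same array Apod (7.10), Ddit4 (4.63), Fbxo40 (6.33), Idh3a (8.65), Cebpd (5.01), Myh1 (10.94) and Myh2 (10.45) were low. PDX array 2 of cohort 4 was high for Cxcl14 (9.12), Slpi (7.65), Ltbp2 (5.52), Inhbb (4.14), Col1a1 (9.87) and Col3a1 (9.49), the last 2 against a next highest level of 8.30 and 8.01 in its group. In cohort 4 array 3 was high for Mup3 (10.08) and Cyp2c40 (2.37) and low for Myh1 (10.57), and array 1 was high for Hdc (4.70). In cohort 2 array 1 was low for Cpa3 (4.98) and Hsph1 (4.82) and high for Rpl8 (8.51), array 2 was high for Mup3 (7.68) and low for Psmd6 (6.72), and array 5 was high for Timp1 (7.67). In cohort 3 array 2 was high for Timp1 (5.49), and array 5 for Lep (3.83) and Myod1 (5.05).

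The tumour effect differed between cohorts for Per1 (adjusted p = 0.00152, limma F test) and Cdk14 (adjusted p = 0.0185). It differed between the diaphragm and the tibialis anterior, by limma's test of the difference, for 16 of 33 genes named among the largest changes or on the list of genes always shown. Over all genes tested the diaphragm effect was higher for 3.98% and lower for 3.14%. Genes named among the largest changes were picked by their diaphragm effect, so the 16 cannot be judged against these shares. The diaphragm effect was higher for Clca3a1 (1.10), Chl1 (1.95), Ccl8 (1.75), Lbp (1.58), Apod (1.21), Col1a1 (3.22), Col3a1 (2.54) and Myh2 (1.40). It was lower for Cyp2c40 (-1.93), Tecrl (-1.77), Abhd18 (-0.96), Apol6 (-0.93), Fbxo32 (-0.93), Trim63 (-0.84), Foxo1 (-0.55) and Cebpd (-0.94). Cyp2c40 is a liver gene that followed Alb with a slope of 0.66. Its diaphragm effect did not pass without the covariate (adjusted p = 0.157, limma). The 2021 probe sets with no single gene name entered no comparison above. Fitted in the same way and adjusted among themselves, 62 of the 2021 were higher and 95 lower in PDX. For named genes the shares were 6.62% and 7.52%.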

How the results depend on the processing

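The counts over all genes moved by over 1.5 times in these cases. Genes higher and lower in PDX numbered 413 and 423 without the arrays richest in liver RNA and without the Alb covariate, 758 and 1116 without cohort 1, and 461 and 557 with the cohort as the replicate. Without cohort 2, 787 were higher. Genes that fell with Alb numbered 322, 214, 356 and 396 without cohorts 1, 2, 3 and 4. The F test of cohort differences passed for 1 gene with no Alb covariate, 14 without the arrays richest in liver RNA, 10 with array weights and 8 with each array centred on its median. Leaving out single arrays gave 1279 to 1593 higher and 1453 to 1934 lower genes, 0 to 46 for the F test, 798 to 1243 rising and 216 to 1171 falling with Alb (216 without PDX array 4 of cohort 3, 1171 without PDX array 4 of cohort 4), and 787 to 1019 higher and 580 to 923 lower for the difference between muscles. With the replicate number as a block 1443 genes were higher and 1658 lower, and with the number as a random block across muscles the difference between muscles passed for 938 higher and 752 lower genes. Separate Alb slopes for sham and PDX arrays were added after seeing the data. Of 151 single genes refitted, 70 lost their call without the arrays richest in liver RNA and without the Alb covariate. Among the 70 were Mt1, Ddit4, Ccl6, Perm1, Esrrb and Vcam1. The 151 include genes, such as Fbxo32 and Trim63, that had no call in the main fit to lose. With the cohort as the replicate 43 of the 151 lost their call. Without cohorts 1, 2, 3 and 4 the numbers were 26, 33, 23 and 11. Reversed in sign, never as a gene that passed, were Ppargc1a (0.28), Myh1 (0.040), Myh7 (0.038), Serpina1c (0.034) and Cyp3a41b (0.032) without the arrays richest in liver RNA, Spats2l without cohort 1 (-0.014) or 2 (-0.097), Trim63 (-0.037) and Hamp (-0.082) without cohort 3, Igf1 (-0.020), Zfp558 (0.054) and Fgg (-0.013) without cohort 4, Trim63 with the replicate block (-0.00071), and Hamp without 3 single arrays (-0.030 to -0.011, with 0.26 the highest over all single arrays). The causes were not tested. Genes below the median of all probe sets lie near the arrays' background, which limits what their differences can show.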

Other observations

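Some genes outside the lists also had every PDX array above every sham array within each cohort, and they are given here as chosen after their values were seen. Among them, Cyp1b1, a cytochrome P450 of stromal cells, was at 1.45 ± 0.19, Plac8, expressed in myeloid cells, at 1.35 ± 0.13 and Ndnf, a secreted neuron-derived factor, at 1.25 ± 0.11. Several encode proteins of macrophages or innate immunity. These include the lysosomal protease gene Lgmn (1.13 ± 0.13), the coagulation factor gene F13a1 (1.10 ± 0.14), the receptor gene P2ry6 (1.06 ± 0.13), the cytosolic DNA sensor pathway gene Sting1 (1.02 ± 0.12), the inflammatory caspase gene Casp4 (0.82 ± 0.087) and the kinase gene Syk (0.80 ± 0.11). Gpnmb, a glycoprotein of phagocytes, was at 1.17 ± 0.23. Acer2, an alkaline ceramidase, was at 0.97 ± 0.084, and its levels ran at 4.61, 5.05 and 5.58 (lowest, median and highest) in sham and 5.48, 5.93 and 6.73 in PDX arrays. The sphingolipid genes Ugcg and Sptlc2, which encode glucosylceramide synthase and a subunit of serine palmitoyltransferase, were at 0.81 ± 0.13 and 0.56 ± 0.071.

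In the other direction, Ostn, which encodes the muscle-secreted peptide osteocrin (musclin), was at -0.78 ± 0.12, with levels of 4.18, 4.42 and 5.73 in sham and 2.99, 3.88 and 4.28 in PDX arrays. Ddit4l, a relative of the mTORC1 inhibitor Ddit4, was at -1.06 ± 0.14, while Ddit4 was at 0.86 ± 0.17. The AMP-degrading enzyme gene Nt5c1a was at -0.83 ± 0.12, the kinase gene Map2k6 at -0.88 ± 0.16 and the sarcomere formin gene Fhod3 at -0.77 ± 0.11. Co-chaperones of Hsp90 and Hsp70 that the heat shock list does not hold were lower too, with Ahsa1 at -0.41 ± 0.06, Ahsa2 at -0.46 ± 0.076 and St13 at -0.35 ± 0.05. Mitochondrial genes outside the lists were Pmpcb, a subunit of the protease that processes imported proteins, at -0.40 ± 0.06, Mtx2, of the outer membrane, at -0.43 ± 0.068, and Tmem126b and Ndufaf3, which help assemble complex I, at -0.49 ± 0.076 and -0.36 ± 0.079. Mcee and Ivd, enzymes of branched-chain amino acid breakdown, were at -0.59 ± 0.087 and -0.42 ± 0.088. All differences are PDX minus sham on the log2 scale with their SE, and each of these genes passed limma's test.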
